A study of Caenorhabditis elegans with 2 samples.

Results

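U4 is the small nuclear RNA (snRNA) that carries U6 into the spliceosome. U4 and U6 are base-paired in one particle, U5 joins them to form the tri-snRNP, and the helicase Brr2 (snrp-200 in the worm) unwinds U4 from U6 when the spliceosome is activated. A ring of Sm proteins sits on a short run of uridines near the 3′ end of U4. Its genes are transcribed by RNA polymerase II, and in animals the factor that recognises snRNA promoters is SNAPc, the small nuclear RNA activating protein complex, which binds the proximal sequence element just upstream of the transcribed sequence. SNPC-4 is the subunit of worm SNAPc with the Myb-type DNA-binding domain.

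The 5 U4 genes of Caenorhabditis elegans, C52E4.8, F10D2.13, K03B8.10, T11F9.15 and T11F9.16, were taken by name from the 44759 annotated genes of the nuclear chromosomes, 99 of which are annotated as snRNA genes other than spliced leader genes. SNPC-4 was mapped by chromatin immunoprecipitation and sequencing (ChIP-seq) with an antibody to GFP in whole young adult hermaphrodites of strain YL551, a transgenic line that stably expresses SNPC-4 with a C-terminal GFP-FLAG tag, collected 60 hours after release from L1 arrest. There was 1 group of 2 biological replicates and no second condition, so the genes were described within that group, with no test. The line is a single transgenic line, and in whole animals the tissue in which a gene was bound cannot be told. No control library was analysed here. The peak lists carry no read counts, which leaves sequencing depth unknown.

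All 5 genes lie on chromosome V, and coordinates and sequences are those of RefSeq, 1-based in build ce11 (WBcel235). C52E4.8 (WBGene00014291) is at chrV:11980118-11980261 on the plus strand, K03B8.10 (WBGene00014421) at chrV:11391071-11391214 on the minus strand, T11F9.15 (WBGene00014517) at chrV:11478148-11478291 on the plus strand, and T11F9.16 (WBGene00014518) at chrV:11488291-11488434 on the minus strand. These 4 genes lie within 589 kb of each other and outside the annotated protein-coding genes. F10D2.13 (WBGene00045145), at chrV:7142717-7142858 on the minus strand, lies 4248 kb from the nearest of them. It sits in an intron of ugt-37, a gene named for UDP-glucuronosyltransferases, on the same strand, and the noncoding RNA gene F10D2.15 covers it on the other strand. In the Ensembl annotation of the same assembly both C52E4.8 and T11F9.15 carry the name T11F9.15, so genes are called here by their RefSeq names.

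The members were nearly the same RNA. The C52E4.8 gene is shown because it had the strongest signal of the 5 and serves as the standard for the others; capitals mark the sequence ATTTTTG, the Sm site, found at positions 118 to 124 in every member and nowhere else in the 5 genes.

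C52E4.8: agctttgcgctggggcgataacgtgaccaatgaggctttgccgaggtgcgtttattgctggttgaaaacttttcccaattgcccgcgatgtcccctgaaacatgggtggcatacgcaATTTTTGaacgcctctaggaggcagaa

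T11F9.15 had all 144 bases in common with C52E4.8. With positions counted from 1 at the 5′ end of C52E4.8, K03B8.10 differed by T133C, T11F9.16 by C127A, and F10D2.13 by T91A, C94T and G109C. F10D2.13 is annotated with 142 bases, 2 fewer than the others at the 3′ end. Identity between 2 members ran from 97.2% to 100% over their shared length. A search of the genome with the C52E4.8 sequence (blastn, expect value up to 0.001) returned 5 matches, all of them at the members, so no further copy was found at that threshold.

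Across all 5 genes, the sequences in front of them shared little except 1 element at 1 place. The 100 bases before each 5′ end are shown because the strongest summits lay there; capitals mark bases of the element that all 5 genes had at the same distance from the 5′ end.

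C52E4.8: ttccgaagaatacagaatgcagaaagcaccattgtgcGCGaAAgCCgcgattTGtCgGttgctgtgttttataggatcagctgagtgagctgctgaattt
F10D2.13: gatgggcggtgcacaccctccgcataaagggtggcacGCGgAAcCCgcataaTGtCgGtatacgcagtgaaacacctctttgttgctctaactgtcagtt
K03B8.10: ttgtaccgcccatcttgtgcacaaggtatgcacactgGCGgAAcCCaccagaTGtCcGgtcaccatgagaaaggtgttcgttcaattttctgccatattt
T11F9.15: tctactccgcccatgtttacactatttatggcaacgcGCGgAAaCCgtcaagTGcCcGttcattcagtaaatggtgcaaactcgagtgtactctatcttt
T11F9.16: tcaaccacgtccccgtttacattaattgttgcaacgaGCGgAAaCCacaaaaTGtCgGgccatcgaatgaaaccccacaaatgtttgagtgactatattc

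The upstream sequences lie at chrV:11980018-11980117 (plus strand) for C52E4.8, chrV:7142859-7142958 (minus) for F10D2.13, chrV:11391215-11391314 (minus) for K03B8.10, chrV:11478048-11478147 (plus) for T11F9.15 and chrV:11488435-11488534 (minus) for T11F9.16. Between 2 members, 34 to 57 of the 100 upstream bases were the same without gaps, the most between T11F9.15 and T11F9.16 and the fewest between C52E4.8 and F10D2.13. Of the 100 positions, 15 held the same base in all 5 genes, and 11 of these fell within 21 bases, from 63 to 43 bp upstream. No window of that width that did not overlap it held more than 2. The shared letters read GCGNAANCCNNNNNNTGNCNG, where N is any base. The window was chosen after the alignment had been seen, so its presence in the members is a description.

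**Figure D1:**
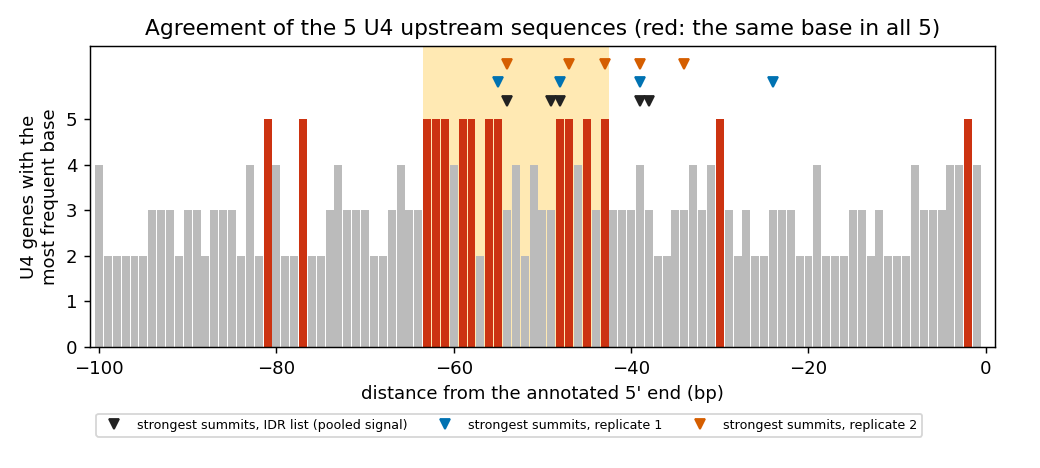
Agreement of the upstream sequences of the 5 U4 genes, aligned without gaps at the annotated 5′ end. Bars give the number of genes with the most frequent base at each position (red where all 5 are the same), the shaded band is the window from 63 to 43 bp upstream, and triangles mark the strongest summits; 11 of the 15 fully shared positions lie in the band, and all but 1 of the 15 summits lie upstream and are drawn (replicate 1 at T11F9.15 lies 7 bp inside the gene).

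The same spaced letters occurred in front of other snRNA genes. Both strands of the 100 bases upstream were searched at the U4 genes and at 44750 other nuclear genes, which leaves out a few of the 44759 annotated. The counts that follow are of the genes searched. Apart from the U4 genes, from which the letters were taken, 16 of 94 snRNA genes held them (17.0%), compared with 44 of the 44656 nuclear genes that are not snRNA genes (0.0985%) and 2 of 19971 protein-coding genes (0.0100%). All 16 had the match on the strand of the gene, and all were among the 60 other snRNA genes with a peak, with none among the 34 without one. They held 15 distinct matches, since mir-1831, which RefSeq annotates as an snRNA gene, lies inside sup-39 and has the same match and the same summit. The first letter of these matches lay 59 to 71 bp upstream, and at 0 of the 16 exactly 63 bp upstream as in the U4 genes. The match was 71 bp upstream at W05B2.8 and F54D8.7, 60 bp at sup-6, F08H9.10, F08H9.11 and T08G5.11, and 61 bp at the SmY gene smy-8, which encodes a small RNA of trans-splicing. The 44656 genes counted as not snRNA genes include the spliced leader and snoRNA genes, so matches at those are among the 44. Of the 30 spliced leader genes, 6 held the letters, all at 63 bp. The letters were in front of 20 of 346 snoRNA genes, at 63 bp in 1 of them. The first 9 letters alone, GCGNAANCC, were in front of 35 of the 94 other snRNA genes (37.2%) and of 168 of the 44656 genes that are not snRNA genes (0.376%). These 35 were 31 of the 60 with a peak (51.7%) and 4 of the 34 without one (11.8%). A match is a string of letters, not a binding site, and these genes include copies of one another.

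All 5 U4 genes had a peak that passed the authors' irreproducible discovery rate (IDR) filter within 250 bp of the 5′ end. Over all 44759 genes the share with such a peak was 4.57%, and over the 94 other snRNA genes it was 63.8% (60 genes, with 58 distinct strongest summits, since overlapping genes can share one). Each member had its own peak, with no summit shared by 2 members. The -log10 q-value was at the highest value of its list at all 5 genes in the pooled list and in both replicates, so the signal is the measure that separates them. Signal here means the deposited score given for a summit, which depends on depth. The signals of each replicate were also divided by that replicate's median at the IDR peaks, 72.2 in replicate 1 and 80.0 in replicate 2. On this relative scale a value of 1 is a median peak.

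C52E4.8 had the strongest signal of the U4 genes, at 2643 in replicate 1, 3535 in replicate 2 and 6101 in the pooled reads. Relative to the median peak it stood at 36.6 and 44.2 in replicates 1 and 2, a mean of 40.4 ± 5.34 (SD, n = 2). It ranked 26 among the 30000 candidate summits of each replicate and of the pooled list. F10D2.13, the copy inside ugt-37, had signals of 665 in replicate 1, 796 in replicate 2 and 1414 in the pooled reads. Its relative signals were 9.21 and 9.95, a mean of 9.58 ± 0.523 (SD, n = 2). C52E4.8 exceeded it 3.98-fold in replicate 1 and 4.44-fold in replicate 2.

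The other 3 genes were nearer to an ordinary peak. K03B8.10 had signals of 267 in replicate 1, 256 in replicate 2 and 510 in the pooled reads, with a relative mean of 3.45 ± 0.354 (SD, n = 2). T11F9.15 had signals of 218 in replicate 1, 211 in replicate 2 and 384 in the pooled reads, with a relative mean of 2.83 ± 0.273 (SD, n = 2). Its replicate 1 value belongs to a summit 7 bp inside the gene, not upstream of it. T11F9.16 had 100.4 in replicate 1, 111 in replicate 2 and 200.1 in the pooled reads, with a relative mean of 1.39 ± 0.000885 (SD, n = 2). The order of the 5 genes was the same in both replicates and in the pooled list. The relative means of K03B8.10 and T11F9.15 lay 0.615 apart, more than the larger of their SDs (0.354), and K03B8.10 was higher 1.22-fold in replicate 1 and 1.21-fold in replicate 2. Relative to the median peak, replicates 1 and 2 stood at 3.70 and 3.20 for K03B8.10 and at 3.03 and 2.64 for T11F9.15. Both genes were thus higher in replicate 1, and these SDs do not measure the spread of the difference between them. The signal of C52E4.8 over that of T11F9.16 was 26.3 in replicate 1 and 31.7 in replicate 2, although their RNAs differ at 1 base.

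**Figure D2:**
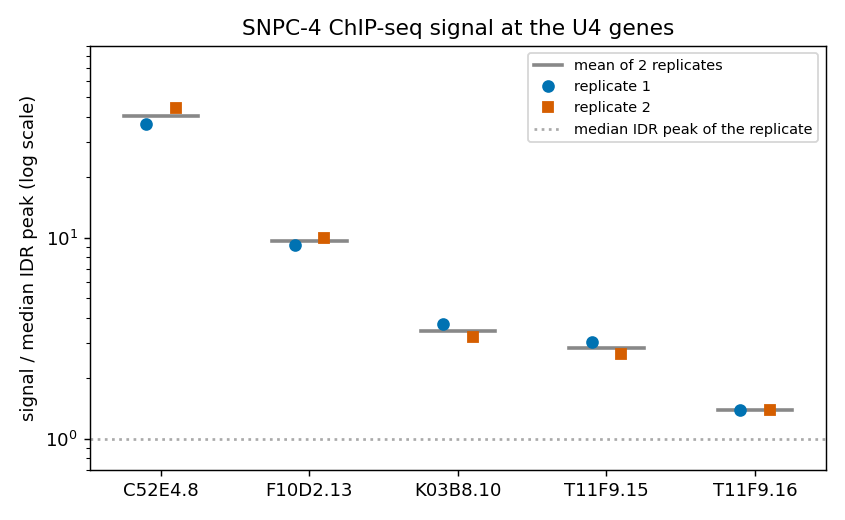
Signal at each U4 gene divided by the median signal of the IDR peaks of the replicate, on a log axis, for replicate 1 (circles) and replicate 2 (squares), with their mean as a grey bar. The genes run from C52E4.8, with a mean of 40.4, to T11F9.16, with a mean of 1.39, and the order is the same in both replicates.

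Among the snRNA genes as a whole the U4 copies were spread from nearly the top to nearly the bottom. Of the 65 snRNA genes with a peak, C52E4.8 ranked 3, F10D2.13 ranked 19, K03B8.10 ranked 40, T11F9.15 ranked 49 and T11F9.16 ranked 57 by pooled signal. The pooled signals of the U4 genes had a median of 510 (from 200.1 to 6101), compared with 726 (from 87.2 to 9688) for the 60 other snRNA genes with a peak. In relative signal the medians were 3.45 for the U4 genes and 4.57 for the others. No test between these sets was run, since genes are not replicates and the copies of a family share sequence. Among the other snRNA genes, those with the nearest pair of relative signals over the 2 replicates were sup-6 for C52E4.8, K09C6.12 for F10D2.13, R05D7.6 for K03B8.10, F56H6.16 for T11F9.15 and smy-7 for T11F9.16. The distance to them was 0.33 on the log2 scale for sup-6 (relative mean 47.4) and 0.097 for smy-7 (relative mean 1.35), and the other 3 lay between these values. The likeness is in level alone.

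**Figure D3:**
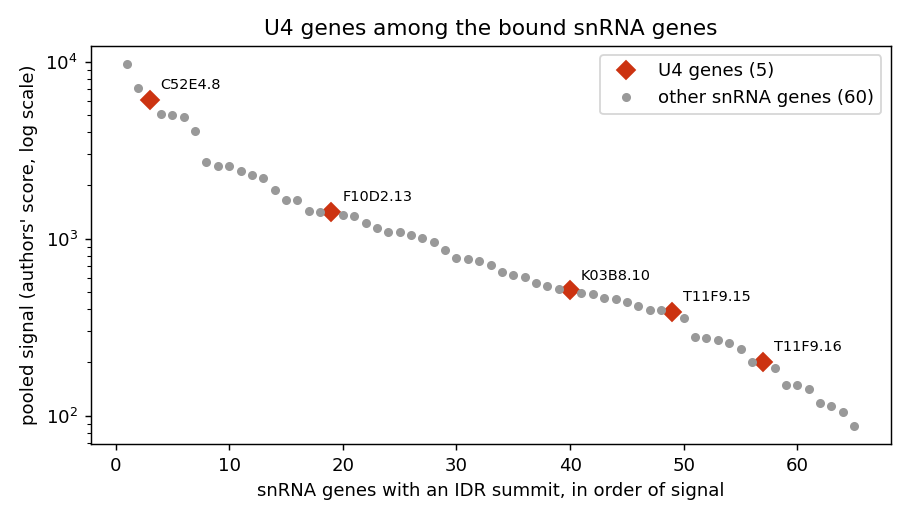
Pooled signal (the authors' score, log axis) of the 65 snRNA genes with an IDR peak, in descending order, with the 5 U4 genes as named diamonds and the 60 other genes as grey circles. U4 genes appear from rank 3 (C52E4.8) to rank 57 (T11F9.16).

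The strongest IDR summits of the U4 genes lay 38 to 54 bp upstream of the 5′ end, with a median of 48 bp, at or beside the shared element. The summit was 54 bp upstream at C52E4.8, 49 bp at T11F9.15 and 48 bp at K03B8.10, all inside the window of 63 to 43 bp. It was 39 bp upstream at F10D2.13 and 38 bp at T11F9.16, which is 4 and 5 bp past the window on the side of the gene. For comparison, the median of the 60 other snRNA genes with a peak was 43 bp upstream, and 53 of them had an upstream summit. The replicates placed the summit with different precision. At T11F9.16 both put it 39 bp upstream, and at C52E4.8 they were 1 bp apart. At F10D2.13 they were 19 bp apart and at K03B8.10 14 bp. At T11F9.15 they were 54 bp apart, since replicate 1 placed it 7 bp inside the gene and replicate 2 placed it 47 bp upstream. All 5 strongest summits were therefore upstream in replicate 2 and in the pooled list, and 4 of 5 in replicate 1. Inside the window lay 2 of 5 in replicate 1 and 3 of 5 in replicate 2. Those farthest from it were both of replicate 1, 50 bp away at T11F9.15 and 19 bp away at F10D2.13.

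T11F9.15 and C52E4.8 also had a summit on the far side of the gene. At T11F9.15 the IDR list held a second summit 9 bp beyond the 3′ end, with a signal of 343 against 384 for the upstream one (89.3%). In replicate 2 it lay 21 bp beyond the 3′ end, at 75.9% of the upstream signal. In replicate 1 it lay 66 bp beyond the 3′ end, at 74.0% of the strongest summit there, which was the one 7 bp inside the gene. A weaker summit farther out, 211 bp beyond the 3′ end in the pooled candidates (signal 66.3) and 220 bp in replicate 2 (signal 68.5), was not in the IDR list. At C52E4.8 the pooled list held a single summit, while replicates 1 and 2 each had another one 17 and 15 bp beyond the 3′ end, with signals of 1009 and 1222, 38.2% and 34.6% of the upstream signal. F10D2.13, K03B8.10 and T11F9.16 had no summit within 250 bp beyond the 3′ end in any of the 4 lists. In the IDR list such a downstream summit was thus present at 1 of 5 U4 genes, and at 19 of the 60 other snRNA genes with a peak. Of these 19, 15 also had an upstream summit, as T11F9.15 did. The 60 include overlapping genes, so the downstream summits counted need not be distinct. Whether they belong to a neighbouring gene was not tested.

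**Figure D4:**
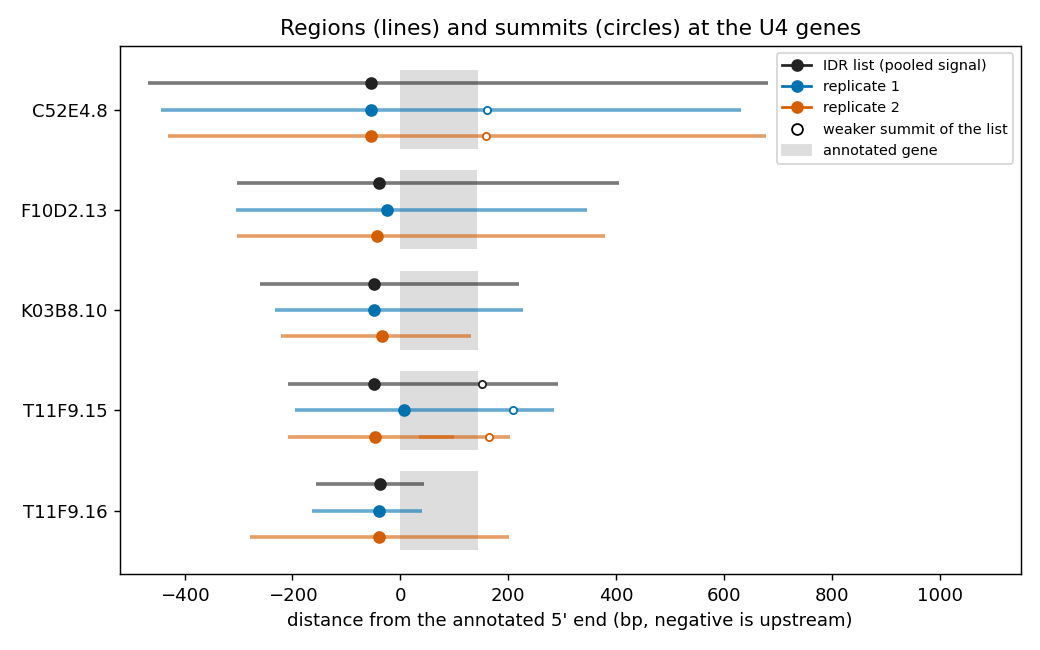
Regions (lines) and summits (circles) within 250 bp of the 5′ end of each U4 gene, by distance from the 5′ end in bp, in the IDR list (black), replicate 1 (blue) and replicate 2 (orange), with the annotated gene in grey and weaker summits as open circles. The region at C52E4.8 spans 1149 bp in the IDR list and that at T11F9.16 spans 201 bp; the second summits lie beyond the 3′ ends of C52E4.8 and T11F9.15.

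The regions differed in extent as well as in signal. In the IDR list the region was 1149 bp wide at C52E4.8, 709 bp at F10D2.13, 481 bp at K03B8.10, 502 bp at T11F9.15 and 201 bp at T11F9.16. The region at T11F9.16 reached from 157 bp upstream to 43 bp downstream of the 5′ end, so it stopped inside the gene. In replicate 1 it was 204 bp wide and ended 40 bp into the gene, and in replicate 2 it was 480 bp wide and ran past the 3′ end. At T11F9.15, replicate 1 gave 1 region of 482 bp with both summits, and replicate 2 gave them separate regions of 309 and 171 bp.

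The genes share sequence, so windows of the genome of the length of a short read were counted. Of the 36-base windows wholly inside the gene, 0 of 109 occurred once in the nuclear genome at C52E4.8 and at T11F9.15, 12 of 109 at K03B8.10 (11.0%), 18 of 109 at T11F9.16 (16.5%) and 52 of 107 at F10D2.13 (48.6%). In the 250 bp on either side of each gene, all 215 windows of each flank occurred once, at all 5 genes. With windows of 50 bases the share inside the gene was 0% for C52E4.8 and T11F9.15 and 55.9% for F10D2.13, and the flanks were again all unique. The gene bodies of C52E4.8 and T11F9.15 could therefore not be told apart by a read that lies wholly within them, while their flanks could. The upstream summits of the IDR list lay in unique sequence at all 5 genes, and the 36-base windows that begin at them occurred once. The strongest summit of replicate 1 at T11F9.15, 7 bp inside the gene, lay where such windows occur 5 times. The regions also reach into the genes, and unique windows at the summits say nothing about reads from there. No source used here gives the read length or the treatment of reads with several matches. The part of shared sequence in the signals, in the strongest and second summits and in the region ends was not tested.

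**Figure D5:**
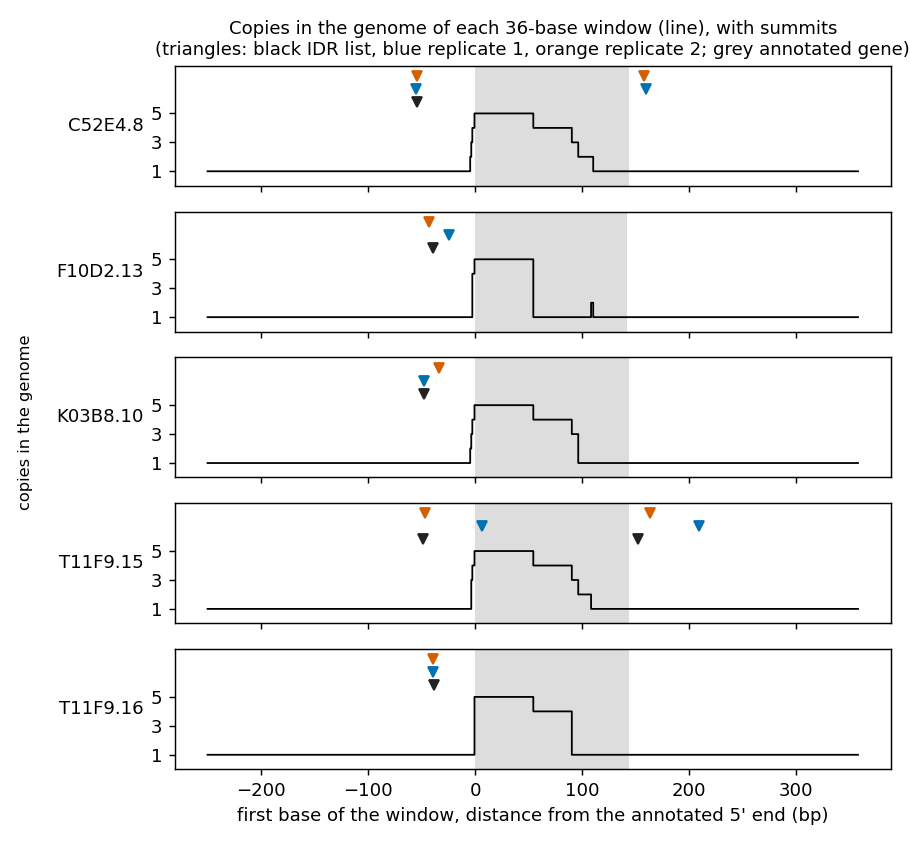
Number of copies in the nuclear genome of each 36-base window, by the distance of its first base from the 5′ end of the U4 gene in bp, with the annotated gene in grey and summits as triangles for the IDR list (black), replicate 1 (blue) and replicate 2 (orange). Windows that begin in the first part of the gene occur 5 times, those wholly inside either flank occur once, and the strongest summits of the IDR list lie over flank sequence.

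T11F9.15 and T11F9.16 are neighbours that face each other, with 9999 bp between their 3′ ends. They had the most alike upstream sequences of any 2 members, 57 of 100 bases, and RNAs that differ by C127A. T11F9.15 had the higher signal, 2.17-fold in replicate 1 and 1.90-fold in replicate 2, and 1.92-fold in the pooled reads. The replicate 1 ratio sets the summit 7 bp inside T11F9.15 against one 39 bp upstream of T11F9.16, while replicate 2 and the pooled reads compare upstream summits. Between their 3′ ends the pooled list held 6 candidate summits, of which 1 was an IDR summit, the one 9 bp beyond T11F9.15. Each gene of the pair thus had its own upstream peak, with no IDR peak in the sequence between them apart from that.

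The summit of the C52E4.8 peak lay in the gap between that gene and snr-4, which encodes the Sm protein SmD2. SmD2 is a part of the ring that assembles on U4 and the other Sm-class snRNAs. The IDR region, chrV:11979651-11980799, covered C52E4.8 and reached over the 5′ end of snr-4. snr-4 (chrV:11978508-11979723, minus strand) points away from C52E4.8, and the noncoding RNA gene C52E4.14 (chrV:11979959-11980101, plus strand) lies between them. The summit was 54 bp from the 5′ end of C52E4.8, 105 bp inside C52E4.14 and 341 bp upstream of snr-4. No other IDR summit lay closer than 500 bp to the start of snr-4. The peak at C52E4.8 had a pooled signal of 6101, against 45.9 and 75.8 for 2 weaker candidates that fell 614 and 1198 bp into snr-4, neither of them in the IDR list. Whether the peak is tied to 1 of these genes or to several cannot be told apart from its position. At F10D2.13 the summit was also within 500 bp of the 5′ end of F10D2.15, at 182 bp, and the summits of K03B8.10, T11F9.15 and T11F9.16 had no annotated 5′ end of another gene within that distance.

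Genes for proteins that work with U4 were looked up in the same list: the Sm and LSm rings, the U4/U6 and tri-snRNP proteins and the factors of snRNP assembly and recycling. Of 27 listed genes, 26 were matched in the annotation (lsm-2 was not), and 7 had an IDR peak with its summit up to 500 bp from a 5′ end (26.9%, compared with 7.47% of all 19971 protein-coding genes). One of the 7 is snr-4, through the peak of C52E4.8. Without it there were 6 of 25 (24.0%), smn-1, snr-1, snr-3, lsm-7, prp-8 and snu-13, with summits 135 to 467 bp upstream. Their relative signals ran from 0.489 to 1.67, below those of the U4 genes other than T11F9.16 (1.39). The highest was smn-1, which encodes the worm SMN protein of Sm ring assembly, at 1.67 ± 0.0446 (SD, n = 2), and its summit was also within 250 bp of mir-4932. The large scaffold protein of the spliceosome, prp-8, stood at 0.866 ± 0.0839 (SD, n = 2), the Sm genes snr-3 and snr-1 at 0.746 ± 0.0515 and 0.737 ± 0.248, and snu-13, whose protein binds the 5′ stem-loop of U4 in human cells, at 0.747 ± 0.238 (SD, n = 2). The summit at snu-13 was also within 250 bp of the noncoding RNA gene M28.13. At lsm-7, of the LSm ring of U6, the replicates were far apart, at 0.235 and 0.742.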

How the data were processed

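SNPC-4 ChIP-seq regions from 2 biological replicates were used as the authors deposited them, in narrowPeak form and build ce11. The signal is the authors' peak score, given for each summit, and the -log10 q-value is as deposited by the authors. The summit is an offset from the region start, converted here to 1-based coordinates. Per the deposited listing, candidate lists (30000 summits each for replicate 1, replicate 2 and the pooled reads) were made from the aligned reads, and the IDR list (2950 summits) derives from them. Not given in the sources used here: aligner, peak caller, IDR threshold, and whether a control entered the scores. Lists in build ce10 were not used here.

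Genes and sequences came from RefSeq, WBcel235. A member's value is the strongest summit up to 250 bp from its 5′ end; the distance was 500 bp, to any annotated 5′ end, for protein-coding genes. No minimum was applied to the signal. Assignment was tested on simulated data with a single summit per gene, at snRNA genes far from any other snRNA gene. The choice among several summits was therefore not tested. Tools were Python 3.11.15, pandas 2.3.3, pysam 0.24.0 and blastn 2.17.0.

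The members, the list of partner genes and the named genes (members, genes with a 5′ end within 500 bp of a member's summit, the nearest snRNA gene in signal for each member, and bound partners) were chosen with earlier results of these data known. Genes of other snRNA families named beside the promoter letters were chosen after their values were seen. The window of 21 bp and its letters were chosen after the sequences were seen. Replicates are summarised as mean and SD (n = 2), and no p-value was computed. Alternatives were other distances, lists, scalings and summit choices.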

Additional observations from a re-analysis of the deposited data

How the results depend on the processing

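The count of 5 U4 genes with a peak was the same under all 7 alternatives: distances of 100, 500 and 1000 bp, the 1463 strongest IDR summits (signal of at least 140.2), the strongest regions of each replicate alone, and overlap of the region with the gene. The distances of 500 and 1000 bp could not lower the count, since they include every summit within 250 bp. The median relative signal, 3.45, was 3.20 without replicate 1 and 3.70 without replicate 2. It stayed within the SD of 0.354 under 6 of 7 alternatives. That SD is taken from the 2 single-replicate values, so neither of them could fall outside it. Counting shared summits once could not change the median either, since no summit is shared by 2 members. Divided by the median of each candidate list it was 15.4, since that scale is set by weaker regions. The median summit position, -48 bp, ran from -43 without replicate 1 to -39 without replicate 2, and was -48 with the nearest summit and with the pooled candidates. The strongest summits of the pooled candidates are the same as those of the IDR list at all 5 genes, so that alternative repeats the main result. By percentile in the candidate lists the median U4 gene stood at 99.2 among pooled candidates, 99.2 for replicate 1 and 99.1 for replicate 2. No paired analysis was possible because there is 1 group. Without read counts, counting error could not be given, and 2 replicates give the SD little precision.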
